A study of Drosophila melanogaster with 2 samples.

Results

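Peptidoglycan recognition proteins (PGRPs) are the fly's sensors and scavengers of bacterial cell wall, and the 10 described here are PGRP-SC1a, PGRP-SC1b, PGRP-SC2, PGRP-SB1, PGRP-LB, PGRP-LC, PGRP-LE, PGRP-SA, PGRP-SD and PGRP-LF. They were chosen by symbol from a deposited transcript table of 13822 loci, with the transcript of the highest mean read count standing for each gene. RNA came from posterior midguts of female Drosophila melanogaster aged 9 days, all of which carried 5966GS-GAL4 and UAS-Gli-RNAi and are otherwise labelled wild type. In the Gli-RNAi group RU486 had switched on RNAi against Gli in enterocytes, the absorptive cells of the gut, whereas the control group had the same transgenes and received ethanol, so no group with the drug alone is part of the comparison. Each group comprised 75 dissected midguts and 3 libraries. Midguts were pooled at RNA extraction although the labels speak of biological replicates, so the p-values measure how much libraries of a group vary, which may be technical in part.

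Peptidoglycan of the DAP type, found in Gram-negative bacteria and bacilli, is the main trigger of the Imd pathway in the fly gut. PGRP-LC at the cell surface and PGRP-LE inside the cell bind it and signal through Imd to the transcription factor Relish, which drives genes of antimicrobial peptides. The catalytic PGRPs are amidases that cut peptidoglycan into fragments of low activity and so dampen the response, and several of them are themselves Relish targets. Other PGRPs lack amidase activity, and some of these serve the Toll pathway or inhibit the receptors.

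The libraries held between 6821908 and 14303722 reads, counted with 1 transcript per locus. Gli, the target of the RNAi, had normalised counts of 882, 895 and 920 in the Gli-RNAi libraries, against 2066, 1973 and 1847 in the controls, with no overlap (log2 fold change -1.13, adjusted p = 1.2e-09, edgeR). A normalised count is the read count of a library divided by its scaling factor, the library size times its TMM factor, set to average 1. Levels are given ± SD (n = 3) and log2 fold changes, Gli-RNAi minus control, ± SE. Tests are edgeR's quasi-likelihood F test with Benjamini-Hochberg adjustment over all genes tested, and a gene was called at an adjusted p under 0.05.

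Of the 10 PGRP genes 9 passed the filter on low counts. PGRP-SC1a, PGRP-SC1b, PGRP-SC2 and PGRP-LE fell, PGRP-SD rose, and PGRP-LB, PGRP-LC, PGRP-LF and PGRP-SA did not pass the test. Among all 8236 genes tested 26.8% fell and 27.6% rose, so 4 falling and 1 rising of 9 do not by their number set the family apart. Its 3 SC genes fell more than 2-fold, as did 7.44% of all genes. The median log2 fold change was -0.07 over the 9 tested members and 0.03 over all genes. The groups did not overlap in normalised count for 4 members that were lower and 1 that was higher in Gli-RNAi libraries, against 28.8% and 31.6% of all genes tested in those directions.

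**Figure D1:**
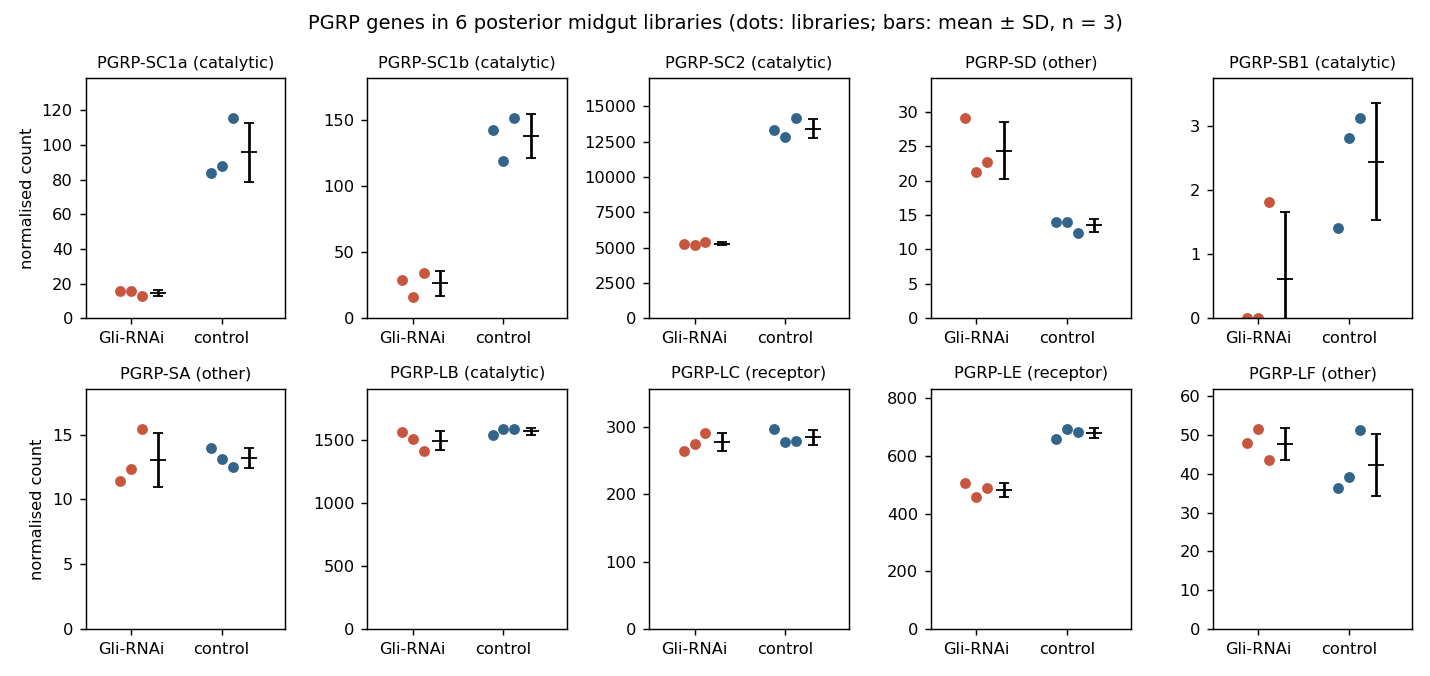
Normalised counts of the 10 PGRP genes, 1 panel per gene with its own axis from 0; dots are libraries, bars the mean ± SD of 3 (cut at 0 for PGRP-SB1). The 2 groups stand apart for PGRP-SC1a, PGRP-SC1b, PGRP-SC2, PGRP-LE and PGRP-SD.

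The amidase gene PGRP-SC2, which encodes a secreted scavenger of peptidoglycan, dominated the family and fell. It had normalised counts of 5283, 5182 and 5386 in Gli-RNAi libraries, against 13313, 12818 and 14155 in controls. No Gli-RNAi library came near a control, and the log2 fold change was -1.35 ± 0.0499, or 2.54-fold lower (edgeR adjusted p = 3.3e-11). In bulk tissue, fewer cells of a type and less RNA per cell cannot be told apart.

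PGRP-SC1a and PGRP-SC1b are near-identical copies that encode secreted amidases of the same kind, and reads may have been shared between them, so each is uncertain alone. PGRP-SC1a had 15.8, 15.7 and 12.7 normalised counts in Gli-RNAi libraries, against 84.0, 88.0 and 115 in controls, with a log2 fold change of -2.66 ± 0.198 (6.33-fold lower, edgeR adjusted p = 5.1e-08). For PGRP-SC1b the normalised counts were 29.1, 15.7 and 34.5 in Gli-RNAi libraries, against 143, 119 and 151 in controls, with a log2 fold change of -2.30 ± 0.192 (4.93-fold lower, edgeR adjusted p = 1.8e-07). Both copies were thus low in all 3 Gli-RNAi libraries and high in all 3 controls. Summed into 1 feature they had a log2 fold change of -2.45 ± 0.146 (edgeR adjusted p = 5.2e-09).

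The 3 SC genes are single-exon genes on the plus strand of chromosome 2R and lie within 7759 bases, from 4597268 to 4605026 in the deposited table, whose genome build is not named. Relative to PGRP-SC2 the pair of SC1 genes was lower in Gli-RNAi libraries. Per transcript length, their joint level was 0.776%, 0.564% and 0.790% of that of PGRP-SC2 in Gli-RNAi libraries, against 1.56%, 1.49% and 1.74% in controls, and the ranges did not overlap.

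PGRP-LB encodes the amidase best known for limiting Imd signalling in the gut, and it did not follow the SC genes. Its normalised counts were 1563, 1506 and 1410 in Gli-RNAi libraries, against 1536, 1583 and 1583 in controls, and the groups overlapped. The log2 fold change was -0.07 ± 0.0567 (95% interval -0.19 to 0.05, edgeR adjusted p = 0.32), while the interval of PGRP-SC2 ran from -1.45 to -1.24.

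For PGRP-LB 3 transcripts were listed, which share their 3′ end on the minus strand of chromosome 3R. The transcript counted here spans 7278563 to 7283742, and, being on the minus strand, starts upstream of the others, which start at 7280051 and 7280080. It held 2472, 1343 and 1554 reads in Gli-RNAi libraries, against 1097, 1690 and 1016 in controls, and the transcript starting at 7280051 held 1669, 959 and 1112 reads in Gli-RNAi libraries, against 789, 1114 and 712 in controls. A read in a shared exon counts for each transcript. Neither proximal transcript passed the test (log2 fold change -0.05 ± 0.0588 and edgeR adjusted p = 0.48 for each).

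PGRP-SB1, an amidase gene known to be induced on infection, was hardly read. It had 0, 0 and 2 reads in Gli-RNAi libraries, against 1, 3 and 2 in controls, and did not pass the filter. The ratio of scaled totals was 0.226, with an exact 95% counting interval from 0.0223 to 1.26, so no difference was detectable at this depth.

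Of the receptor genes PGRP-LE fell and PGRP-LC did not pass the test. PGRP-LE, whose product detects peptidoglycan fragments inside gut cells, had 505, 456 and 487 normalised counts in Gli-RNAi libraries, against 659, 693 and 684 in controls. The groups were separate, though the log2 fold change of -0.49 ± 0.0666 (1.40-fold lower, edgeR adjusted p = 2.5e-05) was smaller in size than that of any SC gene. PGRP-LC, the transmembrane receptor, had 265, 275 and 291 normalised counts in Gli-RNAi libraries, against 297, 277 and 279 in controls. These ranges overlapped, with a log2 fold change of -0.04 ± 0.0771 (95% interval -0.21 to 0.13, edgeR adjusted p = 0.70). Per transcript length PGRP-LE exceeded PGRP-LC by 2.85, 2.48 and 2.50 times in Gli-RNAi libraries, against 3.32, 3.73 and 3.66 times in controls.

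PGRP-LC is spliced into receptors with different peptidoglycan-binding domains, which are encoded by alternative 3′ exons. The table listed 6 transcripts with 3 ends, at 9339366, 9340363 and 9341436 on the plus strand of chromosome 3L. The transcript with the farthest end, which stands for the gene here, held 419, 245 and 321 reads in Gli-RNAi libraries, against 212, 296 and 179 in controls. Of the transcripts with the nearest end, the one with most reads held 396, 205 and 298 in Gli-RNAi libraries, against 199, 268 and 140 in controls. None of the 5 further transcripts passed the test, added to the fit as extra features, and their log2 fold changes lay between -0.01 and 0.12. Since reads in shared exons count for each transcript, the reads do not show how much of each form was made.

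PGRP-LF encodes a membrane protein that resembles PGRP-LC without a signalling tail and inhibits it. Its normalised counts were 48.0, 51.6 and 43.5 in Gli-RNAi libraries, against 36.4, 39.3 and 51.4 in controls. The groups overlapped (log2 fold change 0.19 ± 0.176, 95% interval -0.19 to 0.57, edgeR adjusted p = 0.39). The listed PGRP-LF transcript overlaps 623 bases of UGP on the opposite strand, and UGP fell (log2 fold change -0.77 ± 0.0731, edgeR adjusted p = 6.3e-07). The strand setting of the counting is not given in the sources used here, so reads of the 2 genes cannot be told apart there.

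PGRP-SD, a secreted PGRP without amidase activity that assists recognition upstream of Toll, was the member that rose. Its normalised counts were 29.1, 21.3 and 22.7 in Gli-RNAi libraries, against 14.0, 14.0 and 12.5 in controls. The groups did not overlap, and the rise of 0.88 ± 0.252 (log2, edgeR adjusted p = 0.0092) was 1.84-fold, on 90 reads in the Gli-RNAi libraries together and 33 in the controls. The call was lost without Gli-RNAi replicate 1 (log2 fold change 0.69, edgeR adjusted p = 0.068) and with the DESeq2 Wald test (0.84, adjusted p = 0.082). The gene lies in an intron of CG32373 on the same strand in the release 6 annotation, with 0 shared exon bases. CG32373 rose as well (log2 fold change 1.17 ± 0.301, edgeR adjusted p = 0.0046). However, CG32373 passed the filter on low counts only through the Gli-RNAi libraries, where it is high, so its direction was partly set by the filter. It had 29.1, 33.6 and 27.2 normalised counts in Gli-RNAi libraries, against 7.00, 19.7 and 9.35 in controls. CG7492, on the opposite strand, overlaps 35 bases of the listed PGRP-SD transcript and was not called (log2 fold change -0.14 ± 0.0723, edgeR adjusted p = 0.11). Whether unspliced CG32373 RNA or reads of CG7492 contributed to the reads of PGRP-SD was not tested.

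PGRP-SA encodes the circulating receptor for lysine-type peptidoglycan that activates Toll, and it was barely read. It had 18, 11 and 17 reads in Gli-RNAi libraries, against 10, 14 and 8 in controls, and the log2 fold change of -0.04 ± 0.276 had an interval from -0.63 to 0.56 (edgeR adjusted p = 0.93). The groups overlapped, no difference was detectable at this depth, and changes within that interval are compatible with the counts.

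**Figure D2:**
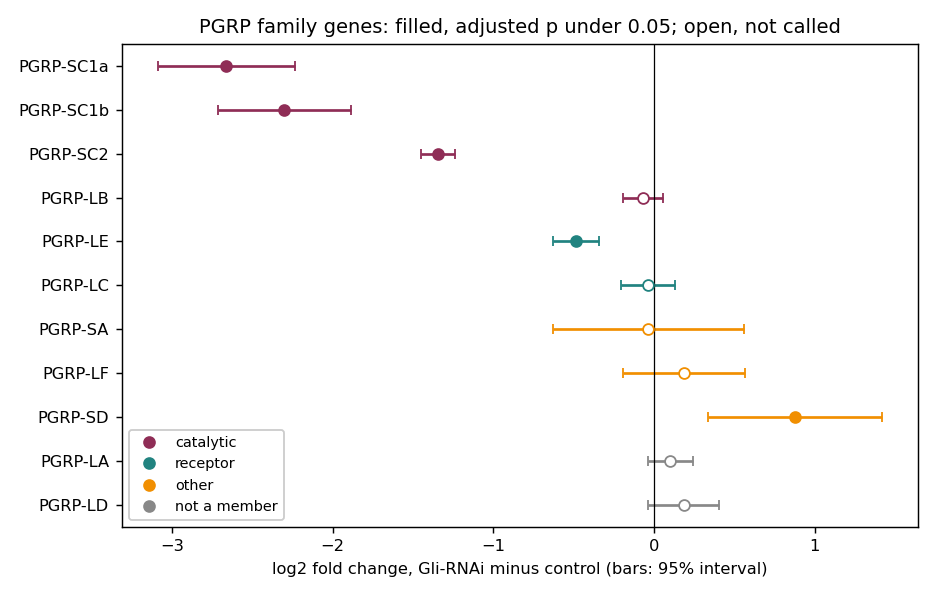
Log2 fold changes of 11 PGRP family genes with 95% intervals, grouped by role; filled points passed the test and open points did not. The 3 SC genes lie at -2.66, -2.30 and -1.35, apart from PGRP-LB at -0.07.

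Compared by role, 3 of 4 tested catalytic members fell and 0 rose, with a median log2 fold change of -1.82. Of the 2 receptors 1 fell, and of the 3 other members 1 rose. Over all genes tested 26.8% fell and 27.6% rose, with a median of 0.03, and classes of 2 to 4 tested genes are too small to be read against those shares. Levels between genes were compared as TPM, which divides reads by transcript length and scales each library to the same total. The catalytic members summed to 1712, 1686 and 1727 TPM in Gli-RNAi libraries, against 3393, 3303 and 3340 TPM in controls. The receptors summed to 79.6, 75.3 and 79.8 TPM in Gli-RNAi libraries, against 83.99, 86.7 and 78.9 TPM in controls. The catalytic sum was therefore 21.5, 22.4 and 21.6 times the receptor sum in Gli-RNAi libraries, against 40.4, 38.1 and 42.3 times in controls, a difference of -0.88 on the log2 scale. The ratio is given without a test, and PGRP-SC2 supplied most of its upper term.

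PGRP-SC2 made up 83.3%, 83.9% and 84.5% of the summed TPM of the 10 genes in Gli-RNAi libraries, against 91.3%, 90.9% and 91.4% in controls. PGRP-LB made up 10.8%, 10.7% and 9.72% in Gli-RNAi libraries, against 4.63%, 4.93% and 4.49% in controls. Without the SC genes, the other 7 members together stood at 289, 278 and 270 TPM in Gli-RNAi libraries, against 253, 263 and 242 TPM in controls. TPM values are parts of a fixed total per library, so small differences on this scale also depend on the other genes of the library.

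In order of mean level the family ran from PGRP-SC2, at 1510 ± 25.7 TPM in Gli-RNAi and 3134 ± 46.3 TPM in control libraries, through PGRP-LB (187 ± 9.59 and 161 ± 6.85 TPM) and PGRP-LE (56.5 ± 2.67 and 64.97 ± 3.23 TPM) to PGRP-LC (21.7 ± 1.06 and 18.2 ± 1.27 TPM). PGRP-SC2 ranked number 64 among all loci by TPM. PGRP-SC1b stood at 6.55 ± 2.38 TPM in Gli-RNAi and 27.9 ± 2.58 TPM in control libraries, and PGRP-SC1a at 4.19 ± 0.504 and 22.1 ± 2.85 TPM. Both SC1 genes were above PGRP-LC in every control library and below it in every Gli-RNAi library, while their own ranges overlapped in both groups. PGRP-LF averaged 5.59 ± 0.486 TPM in Gli-RNAi and 4.04 ± 0.565 TPM in control libraries. For PGRP-SD the means were 5.55 ± 0.927 TPM in Gli-RNAi and 2.52 ± 0.280 TPM in control libraries, and for PGRP-SA they were 1.83 ± 0.296 and 1.51 ± 0.147 TPM. PGRP-LF and PGRP-SD overlapped in Gli-RNAi libraries, where PGRP-SD was above PGRP-SA in each.

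**Figure D3:**
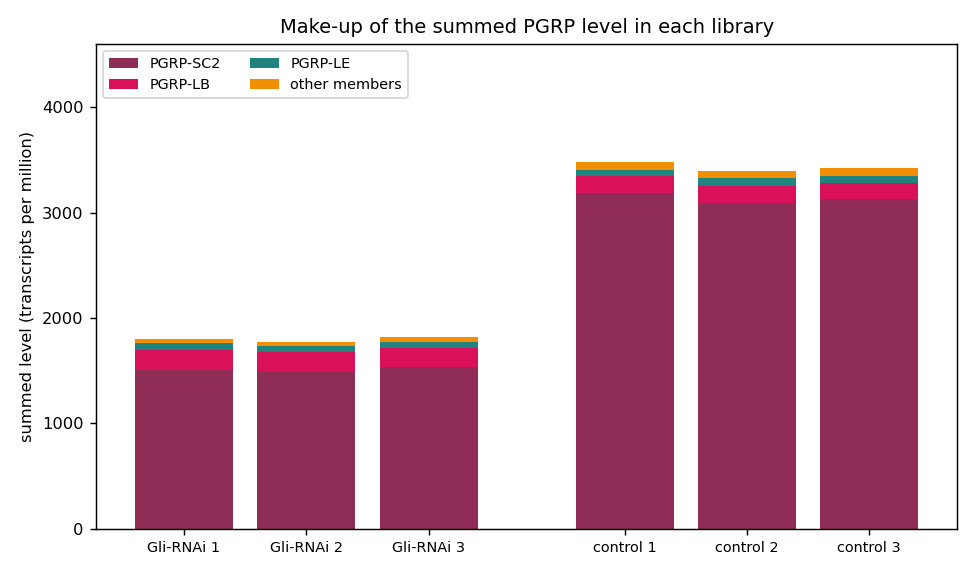
Summed level of the 10 PGRP genes in TPM, stacked by gene, in each library. PGRP-SC2 takes 83.3% to 84.5% of the sum in Gli-RNAi libraries and 90.9% to 91.4% in controls.

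A ratio within a library does not depend on scaling. The PGRP-LB to PGRP-LC ratio of counts was 5.90, 5.48 and 4.84 in Gli-RNAi libraries, against 5.17, 5.71 and 5.68 in controls (exact two-sided permutation p = 0.7). For PGRP-LF to PGRP-LC it was 0.181, 0.188 and 0.150 in Gli-RNAi libraries, against 0.123, 0.142 and 0.184 in controls (exact two-sided permutation p = 0.3). With 3 libraries against 3 the smallest p is 0.1, so neither ratio could have passed the test.

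Directions of small changes were relative to the scaling. With library totals in place of TMM factors the median over all genes was 0.22 (log2), and PGRP-LB, PGRP-LC and PGRP-SA turned to 0.12, 0.15 and 0.15, none past the threshold (edgeR adjusted p = 0.084, 0.11 and 0.70). PGRP-SC1a, PGRP-SC1b, PGRP-SC2 and PGRP-LE fell under this scaling too, with log2 fold changes of -2.47, -2.11, -1.15 and -0.30.

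**Figure D4:**
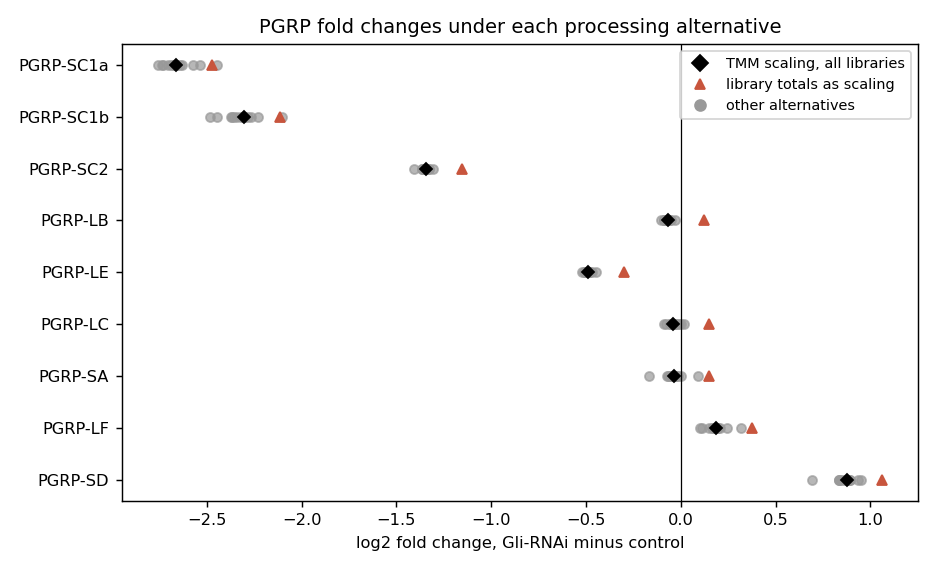
Log2 fold changes of the 9 tested PGRP genes with TMM scaling (diamonds), with library totals (triangles) and under the other alternatives (circles). PGRP-LB, PGRP-LC and PGRP-SA cross 0 with library totals, whereas the SC genes and PGRP-LE stay below 0.

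The authors' deposited table of changed genes lists 4 of the 10 among its 3049 genes. In the authors' deposited table the log2 fold changes are -2.727 for PGRP-SC1a, -2.404 for PGRP-SC1b, -1.368 for PGRP-SC2 and 0.832 for PGRP-SD. These signs are read as Gli-RNAi over control because the deposited counts run that way, although the deposited column description gives control over treatment for the fold change per transcript and no order for the mean per gene. PGRP-LE has an adjusted p of 1.35e-09 in the authors' deposited table of transcripts.

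The family has 3 further genes. PGRP-LA, known as a positive regulator of Imd signalling in epithelia, lies beside PGRP-LC and PGRP-LF, the 3 spanning 15436 bases of chromosome 3L. It averaged 527 ± 11.1 normalised counts in Gli-RNAi and 493 ± 18.7 in control libraries (log2 fold change 0.10, edgeR adjusted p = 0.21), higher in every Gli-RNAi library. PGRP-LD could be read only in a locus it shares with Pmi, at 254 ± 19.5 in Gli-RNAi and 223 ± 31.2 in control libraries (0.19, edgeR adjusted p = 0.15). PGRP-SB2 had 0 reads in all libraries. With library totals as scaling both PGRP-LA and the shared locus were called as rising, as were 3737 of all 8236 genes tested.

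Markers of other cells and regions moved as well, and their part in the PGRP results was not tested. For comparison, 27.6% of all genes tested rose and 26.8% fell. All 9 progenitor markers rose, with a summed level of 322 to 340 TPM in Gli-RNAi libraries, against 88.5 to 102 TPM in controls. The copper cell region lies just anterior to the posterior midgut. Its 4 markers, lab, Vha100-4, Ptx1 and CAH7, all fell, to 137 to 149 TPM in sum in Gli-RNAi libraries, against 158 to 188 TPM in controls. Fat body markers, led by yolk protein genes, fell in 4 of 5 tested, with 127 to 132 TPM in Gli-RNAi libraries, against 289 to 305 TPM in controls, while Lsp2 had 1 read in each group. Of 8 enterocyte markers 2 rose and 3 fell, at 10994 to 11458 TPM in Gli-RNAi libraries, against 10186 to 10319 TPM in controls. These counts are near the shares of all genes and do not set the list apart. Of 10 enteroendocrine markers 1 rose and 6 fell, at 769 to 797 TPM in Gli-RNAi libraries, against 835 to 919 TPM in controls. The 4 tested of 5 markers of Malpighian tubule and hindgut fell, at 11.9 to 13.3 TPM in Gli-RNAi libraries, against 34.1 to 35.8 TPM in controls. The progenitor marker spdo and the tubule marker Uro passed the filter on low counts only through the group where they are high. Blood cell markers summed to 1.11 to 1.46 TPM in Gli-RNAi libraries, against 1.38 to 1.88 TPM in controls, with He and eater at 0 reads.

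Of 13 Imd signalling components, through which PGRP-LC and PGRP-LE act, 4 rose and 1 fell, with a median log2 fold change of 0.07. Over all genes tested 27.6% rose and 26.8% fell, with a median of 0.03, so the number that rose was near the background. The adaptor gene of the IKK complex, key, rose by 0.88 ± 0.0615, its kinase gene IKKbeta by 0.48 ± 0.116 and the upstream kinase gene Tak1 by 0.40 ± 0.0888, whereas Tab2, the partner of Tak1, fell by 0.35 ± 0.0663. Rel, which encodes Relish, had 1813 ± 52.9 normalised counts in Gli-RNAi and 1875 ± 93.4 in control libraries (-0.05, edgeR adjusted p = 0.46), and ben (0.01) did not pass either. With library totals as scaling 9 of the 13 rose and 0 fell. Under that scaling 3737 of all 8236 genes tested rose and 1512 fell, with a median log2 fold change of 0.22.

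Of 9 negative regulators of the pathway 4 rose and 3 fell, beside 27.6% and 26.8% of all genes tested, so these counts do not set the list apart. The number that rose was 2 with DESeq2 and without single libraries (Gli-RNAi 1, 2 or 3, or control 2). The gene pirk, which encodes an inducible inhibitor that acts on PGRP-LC, fell to 562 ± 44.9 normalised counts in Gli-RNAi libraries, against 1242 ± 67.8 in controls (log2 fold change -1.14 ± 0.0719, edgeR adjusted p = 8.9e-09). The gene dnr1, whose product inhibits the caspase Dredd, fell by 0.54 ± 0.0679 and POSH by 0.41 ± 0.101. The transcription factor gene nub, whose product represses antimicrobial genes in the gut, rose by 0.64 ± 0.0509, and cad (-0.12) and trbd (0.06) did not pass.

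In the Toll pathway, where PGRP-SA and PGRP-SD have a role, 6 of 13 tested genes fell and 1 rose. The median log2 fold change was -0.08, and over all genes tested 26.8% fell and 27.6% rose. GNBP3, Tl, SPE and nec had log2 fold changes of -1.46 ± 0.395, -1.35 ± 0.342, -1.15 ± 0.401 and -1.15 ± 0.281, at mean normalised counts of 5.75 to 7.91 in Gli-RNAi and 13.4 to 18.1 in control libraries. These genes and modSP, which also fell, passed the filter on low counts only through the control libraries, where they are high. The number that fell was thus partly set by the filter. Myd88 (0.11) and cact (-0.0027) did not pass. Scaled by library totals, 4 of the 13 fell and 3 rose, beside 1512 falling and 3737 rising of all 8236 genes tested.

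**Figure D5:**
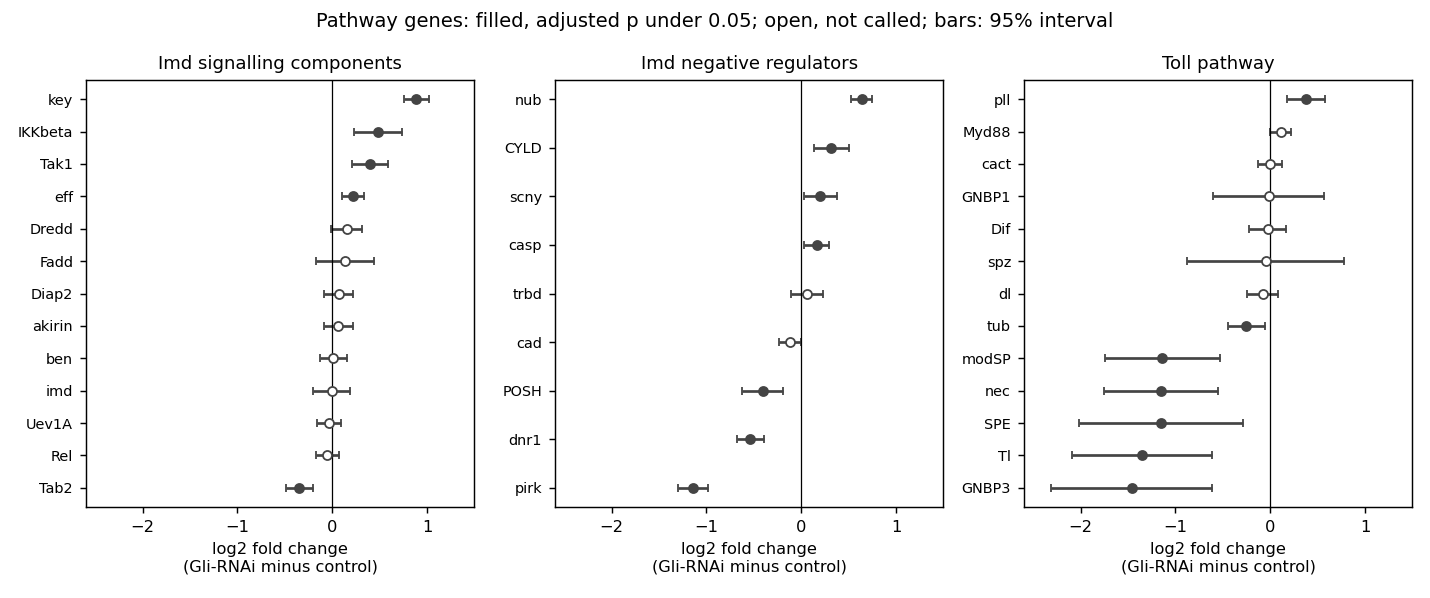
Log2 fold changes with 95% intervals of tested Imd signalling components, Imd negative regulators and Toll pathway genes; filled points passed the test. The lowest of the negative regulators is pirk at -1.14, and the highest of the signalling components is key at 0.88.

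Antimicrobial peptide genes, some of which are Relish targets, were hardly read in either group. Of 20 genes 18 did not pass the filter, with 55 reads in Gli-RNAi and 38 in control libraries over all of them, and 6 had 0 reads throughout. DptA, the usual readout of Imd activity, chosen after its values were seen, had 2 reads in Gli-RNAi and 1 in control libraries. Both tested genes, of the drosomycin family, rose, beside 27.6% of all genes tested. They passed the filter only through the Gli-RNAi libraries, where they are high, so this direction was largely set by the filter. Drsl2 had 74 reads in Gli-RNAi and 1 in control libraries, a ratio of scaled totals of 50.2 with a 95% counting interval from 8.73 to 2008. Drsl3 rose by 1.78 ± 0.407 (log2, edgeR adjusted p = 0.0020). Of the oxidative defence genes, Cat, which encodes catalase, fell by 1.16 ± 0.0541 and Irc by 1.21 ± 0.205, Nox rose by 0.97 ± 0.224, and Duox, also named after its values were seen, had 1 read in Gli-RNAi and 3 in control libraries.

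The genes whose counts followed those of PGRP-SC2 most closely over the 6 libraries were CG33306, AgmNAT and Cyp6d5. Their log2 normalised counts, each centred on its mean, differed from those of PGRP-SC2 by a root mean square of 0.0139, 0.0269 and 0.0317. They were picked from 6830 genes with a mean of at least 50 reads. Genes with a similar difference between the 2 groups come out alike by this measure. CG33306 had 4893, 4756 and 4893 normalised counts in Gli-RNAi libraries, against 12477, 11753 and 13026 in controls.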

How the data were processed

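Poly(A) RNA of posterior midguts was sequenced in 3 Gli-RNAi and 3 control libraries. The authors deposited raw read counts per transcript and library, with transcript lengths in bases, per the file headers. The values show that a read in a shared exon is counted in each transcript. They also deposited adjusted p-values per transcript and a table of log2 fold changes and p-values per gene, made with DESeq per the submitters' processing notes. Those log2 values run Gli-RNAi over control by the counts, whereas the deposited column description gives the opposite order for its transcript table. The sources used here do not name the aligner, counter, strand setting or build.

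From the counts, 1 transcript per locus (highest mean count) was tested with edgeR 4.0.16 in R 4.3.3, using TMM scaling and its default filter on low counts. SE is the absolute log2 fold change over the square root of F. TPM was computed from the counts and transcript lengths. Intervals at 95% for read ratios are exact and cover counting error only. The fit was tested on simulated counts of 8236 genes, where it recovered 40%, 78%, 92% and 100% of 50 genes each changed 1.25-, 1.5-, 2- and 4-fold. Of the genes left unchanged 6 were called. Far more genes were called in the data, where 2272 rose and 2204 fell, so recovery there may differ.

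The members and gene lists were chosen with earlier results of these data known. From each list up to 4 called genes of the largest change and up to 2 others of the highest count were named. The 3 genes most like PGRP-SC2 were taken from those with a mean of at least 50 counts. Alternatives used DESeq2 1.42.0, limma 3.58.1, other scalings, filters and transcripts, single libraries left out and a replicate block. Upper quartile scaling and the further transcripts were added after seeing the data.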

Additional observations from a re-analysis of the deposited data

How the results depend on the processing

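The falls of PGRP-SC1a, PGRP-SC1b, PGRP-SC2 and PGRP-LE were called in all alternatives run, with log2 fold changes from -2.76 to -2.45, -2.48 to -2.10, -1.41 to -1.15 and -0.52 to -0.30. PGRP-SD had 0.84 with the DESeq2 Wald test (adjusted p = 0.082) and 0.69 without Gli-RNAi replicate 1 (edgeR adjusted p = 0.068), so 0 members rose there, and 0 to 1 over the libraries left out. With library totals 3737 genes rose, as did 2 other PGRP family genes, 9 Imd signalling components (0 fell) and 3 Toll pathway genes, while PGRP-SA, PGRP-LB and PGRP-LC stood at 0.15, 0.12 and 0.15, uncalled. Imd negative regulators that rose were 2 with the DESeq2 Wald test and with DESeq2 size factors, and 2 to 4 over the libraries left out. Other PGRP family genes that rose were 0 to 1 over the libraries left out. Leaving out single libraries moved PGRP-SA between -0.17 and 0.089, positive without Gli-RNAi replicate 1 (0.089) and control replicate 1 (0.0018), and the PGRP-LB to PGRP-LC ratio between -0.098 and 0.044 (log2). Summing transcripts gave 0.016 for PGRP-LC and -0.96 for the catalytic to receptor ratio. The cause of these shifts was not tested. Same-numbered libraries did not deviate together (r from -0.158 to 0.0473), and with the numbers as a replicate block 1 member rose and 4 fell, with 2168 and 2113 of all genes. Low counts limit PGRP-SA, PGRP-SD and PGRP-SB1.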
